A study of Mus musculus with 9 samples.

Results

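The genes described here are Gm10653, Ppp2r1b, Efr3b, Acta2, Abcc1, Trpv4, Ggh and Clec16a, 8 of the 23284 gene symbols measured. They were selected on their measured FPKM, because each differed clearly between Mo-MDSCs labelled p16/p21-DKO and WT Mo-MDSCs while having no known place near Cdkn1a or Cdkn2a, the genes of p21 and p16. That difference chose the genes, so their values in it are given as a description, without a test. The comparison of WT Mo-MDSCs with WT PMN-MDSCs was not used in the choice and was tested, although it shares the 3 WT Mo-MDSC samples.

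Myeloid-derived suppressor cells (MDSCs) are immature myeloid cells that accumulate in tumour-bearing animals, in a monocytic (Mo) and a polymorphonuclear (PMN) form. RNA-sequencing was performed on 9 samples of splenic MDSCs from mice bearing spindle cell tumour (SCT) cells, 3 of PMN-MDSCs from WT mice, 3 of Mo-MDSCs from WT mice and 3 of Mo-MDSCs from DKO mice. The SCT line was itself derived from a mouse without p16. No sample of DKO PMN-MDSCs was analysed here. PMN-MDSCs were isolated as Ly6G+ cells and Mo-MDSCs as Ly6G- Gr-1+ cells with a magnetic kit. The strain is given as C57BL/6J for both WT groups and as C57BL/6 for the DKO group, and the age as 3 weeks in all groups. The methods give an older age at inoculation and 3 weeks as the time from inoculation to collection, so the label does not match the age they describe. Genotype and strain label cannot be told apart in these samples. How many animals gave each sample is not stated, so p-values measure only the spread between samples, which may be technical.

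Values are FPKM, fragments scaled to transcript length and to the size of the library, as deposited. Total FPKM per library was 494252 to 916642, the upper quartile over genes was 22.02 to 24.5, and relative depth worked out from low genes was 0.809 to 1.31. The absolute number of reads is unknown. The DKO label could not be checked from RNA. Cdkn1a was at 8.18, 6.46 and 8.04 FPKM in the WT Mo-MDSC libraries and at 5.55, 8.52 and 6.00 FPKM in the libraries labelled DKO. Cdkn2a was at 0.718, 0.772 and 0.432 FPKM in WT and at 0.258, 0.586 and 0 FPKM in the libraries labelled DKO. Both genes overlapped between the groups. FPKM covers a whole gene, and the deleted stretches are not given in the sources used here, so these values neither bear out nor contradict the label. Directions below are those of the libraries labelled DKO. The summed FPKM of 7 monocyte markers was 1929 to 2179 in WT Mo-MDSCs, 1570 to 1754 in the libraries labelled DKO and 1032 to 1079 in PMN-MDSCs, and that of 6 neutrophil markers was 4430 to 13945, 1966 to 4196 and 9061 to 26540 in the same order. Neutrophil marker RNA was thus also present in both Mo-MDSC groups. In bulk samples such as these, fewer cells of a type and less RNA per cell cannot be told apart.

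The genes have different known roles. Ppp2r1b encodes the beta form of the scaffold on which the catalytic and regulatory subunits of the phosphatase PP2A assemble, and Efr3b encodes a protein that anchors phosphatidylinositol 4-kinase at the plasma membrane. Acta2 encodes alpha smooth muscle actin, a textbook marker of smooth muscle cells and myofibroblasts. Abcc1 encodes MRP1, which exports glutathione conjugates, including leukotriene C4, and drugs from cells, and Trpv4 encodes a calcium-permeable cation channel opened by swelling and warmth. Ggh encodes gamma-glutamyl hydrolase, the lysosomal enzyme that trims the glutamate tails of folates, and Clec16a encodes a membrane-associated protein of endosomal traffic and mitophagy. Gm10653 is annotated as a transcribed processed pseudogene.

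In the GENCODE M21 annotation of GRCm38, the assembly to which mm10 corresponds, none of the genes lay on chromosome 17, which holds Cdkn1a. Ggh, at chr4:20042052-20066750 on the + strand, was the only one on the chromosome of Cdkn2a, 69.2 Mb from it. Gm10653 (chr9:62841477-62868000, - strand) and Ppp2r1b (chr9:50845301-50894229, + strand) lay on chromosome 9, and Abcc1 (chr16:14361558-14475737, + strand) and Clec16a (chr16:10545339-10744878, + strand) on chromosome 16. Efr3b was at chr12:3962554-4038915 on the - strand, Acta2 at chr19:34241090-34255590 on the - strand and Trpv4 at chr5:114622152-114658421 on the - strand.

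The pseudogene is shown first, because its value depends on telling its reads from those of another gene. Bases 359 to 1232 of the 1232-base transcript Gm10653-201, which has 4 exons, aligned to the transcript Rps2-201 of the ribosomal protein gene Rps2 with an identity of 91.4% over 923 columns, of which 29 were mismatches and 50 were gaps. Within the coding part of Rps2, 58 of the 457 gap-free windows of 75 bases, the read length, had no difference between both genes. The window with the most differences is printed from both genes with the 8 differing bases in capitals, from chr9:62842255-62842329 on the - strand for Gm10653 and from chr17:24720294-24720368 on the + strand for Rps2 (GRCm38).
Gm10653: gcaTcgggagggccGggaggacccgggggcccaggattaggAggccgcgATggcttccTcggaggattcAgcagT
Rps2: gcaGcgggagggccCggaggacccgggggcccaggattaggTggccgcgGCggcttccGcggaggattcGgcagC
Over the whole of Gm10653, 107 of 1158 words of 75 bases (9.24%) also occurred in transcripts of other genes, 58 of them in Rps2. The same share was 0% for Ppp2r1b, Efr3b, Acta2, Trpv4 and Ggh, 0.0831% for Abcc1 and 0.139% for Clec16a.

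Promoters in a RefSeq table (GRCm38.p6) were matched for 5 of the 8 genes, Trpv4, Ppp2r1b, Efr3b, Clec16a and Acta2. Those of Acta2 and Efr3b, the protein-coding genes with the highest ratios between the Mo-MDSC groups, are shown over the 120 bases before the start in that table. For Efr3b this is the start of the gene in GENCODE M21, and for Acta2 it lies 217 bases inside the GENCODE gene, at 34255373. Capitals in the Acta2 promoter (chr19:34255374-34255493, - strand) mark CArG boxes, the known binding sequence of serum response factor, here CC, then 6 bases of which at least 5 are A or T, then GG. Capitals in the Efr3b promoter (chr12:4038916-4039035, - strand) mark GGGCGG on either strand, the core of a GC box.
Acta2: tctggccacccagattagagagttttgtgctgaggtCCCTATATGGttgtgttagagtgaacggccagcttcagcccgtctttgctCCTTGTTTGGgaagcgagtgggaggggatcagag
Efr3b: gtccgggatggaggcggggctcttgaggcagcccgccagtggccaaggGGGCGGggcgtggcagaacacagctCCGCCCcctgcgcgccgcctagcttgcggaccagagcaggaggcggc
The boxes of Acta2 began 84 and 34 bases before the RefSeq start. Among 32851 promoters searched on both strands over the 250 bases before the start, 8.59% held a CArG box and 32.7% held GGGCGG. Of the other matched genes, Trpv4 held 1 CArG box and 2 matches to GGGCGG, and Ppp2r1b and Clec16a held 1 match to GGGCGG each and no CArG box. The other motifs searched were TATANA for a TATA box (held by 22.6% of promoters), CCAAT for a CCAAT box (33.9%), TTTNNCGC for an E2F site (4.28%) and TGANTCA for an AP-1 site (6.75%). Of the 5 genes Ppp2r1b held 2 matches to CCAAT and Clec16a held 1, and none held any of the other 3. A match of letters describes the sequence and not binding.

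In Mo-MDSCs, 7 of the 8 genes were higher and 1, Ggh, was lower in the libraries labelled DKO, and for all 8 the values of the DKO and WT groups did not overlap. The choice of the genes favours this, and the share of all genes without overlap was not counted. In the limma fit over 11451 genes, 29 (0.253%) had a Benjamini-Hochberg adjusted p below 0.05, 19 (0.166%) higher and 10 (0.0873%) lower, and the 8 genes, chosen on this comparison, were among them, from which nothing further is read. Over the alternatives 2 to 8 of them were called, and 5 with the replicate block, without Efr3b, Abcc1 and Clec16a. These counts describe the settings and do not test the genes. Only 6 genes in all were called when replicate 1 of both groups was left out. The plot of FPKM by library shows each value, and the differences below are on the log2(FPKM + 0.1) scale with their standard errors (3 samples per group).

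**Figure D1:**
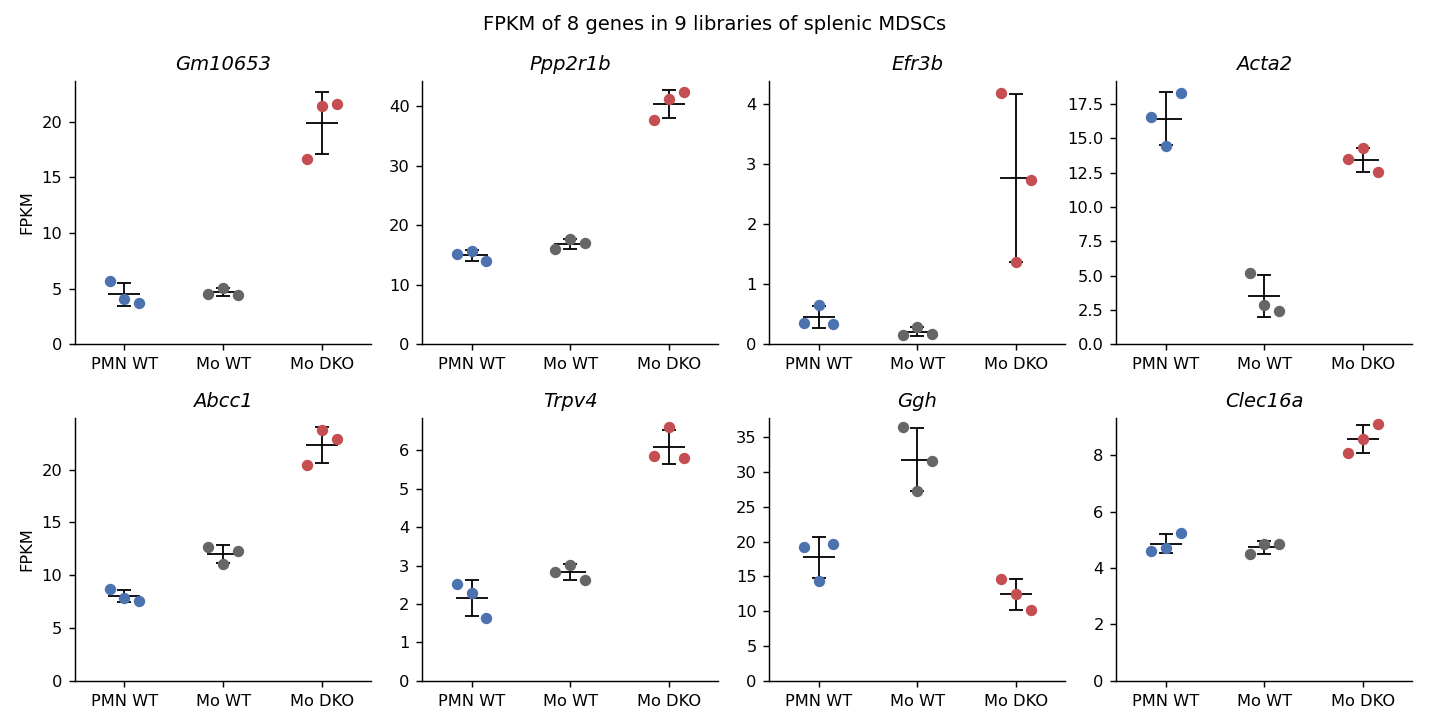
FPKM (y axis, linear, from 0) of each of the 8 genes in each library, for WT PMN-MDSCs, WT Mo-MDSCs and Mo-MDSCs labelled DKO. Points are libraries, horizontal bars are means and whiskers are the SD of 3 libraries. In 7 panels the libraries labelled DKO lie above the WT Mo-MDSCs and for Ggh they lie below. For Acta2 the highest library labelled DKO, at 14.3, lies just under the lowest PMN-MDSC library, at 14.4. For Ggh the libraries labelled DKO and the PMN-MDSCs overlap.

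Ppp2r1b was at 15.995, 17.7 and 16.99 FPKM in WT Mo-MDSCs, at 37.8, 41.2 and 42.3 FPKM in the libraries labelled DKO and at 15.2, 15.7 and 14.0 FPKM in WT PMN-MDSCs. All libraries labelled DKO lay above all 6 WT libraries of either cell type. The ratio of the mean FPKM of the libraries labelled DKO to that of WT Mo-MDSCs was 2.39, and the log2 difference was 1.25 ± 0.08. Between WT Mo-MDSCs and PMN-MDSCs the difference was 0.17 ± 0.08, which was not called (limma, adjusted p = 0.136). The alpha scaffold Ppp2r1a, with a mean of 75.7 FPKM among WT Mo-MDSCs and 71.2 FPKM in the libraries labelled DKO, was not called between them (limma, log2 difference -0.09, adjusted p = 0.662). Of the listed PP2A subunits and regulators, 21 were tested and 0 were called in that comparison, where 0.253% of all genes were called. The median log2 difference of the 21 was -0.08, beside -0.02 over all genes tested. In WT Mo-MDSCs against PMN-MDSCs 1 of the 21 rose, Ppp2r3d (0.35), and 3 fell, Ppp2r1a (-0.44), the catalytic subunit gene Ppp2ca (-0.44) and the regulatory subunit gene Ppp2r2d (-0.43). Of all genes 18.5% rose and 20.6% fell. With the replicate block, which pairs same-numbered samples, 3 of the 21 rose and 6 fell, beside 3167 and 3417 of 11491 genes.

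Ppp2r1b shares 1429 exonic bases, 22.2% of its own, with Sik2, a kinase gene on the other strand at chr9:50892801-51009073. Sik2 was at 8.16, 9.22 and 9.40 FPKM among WT Mo-MDSCs and at 11.4, 12.8 and 15.6 FPKM in the libraries labelled DKO. These groups did not overlap either, although the difference of 0.56 ± 0.13 on the log2 scale was not called (limma, adjusted p = 0.160). The libraries were made with a stranded kit, but the strand setting of the counting is not given in the sources used here. The part of shared reads in either value was not tested.

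Efr3b was the lowest of the genes in WT Mo-MDSCs, at 0.160, 0.293 and 0.172 FPKM, and stood at 4.18, 1.38 and 2.74 FPKM in the libraries labelled DKO. In PMN-MDSCs it was at 0.360, 0.661 and 0.331 FPKM. The lowest library labelled DKO was 4.70 times the highest WT Mo-MDSC library, but the DKO libraries also differed among themselves more than for any other of the genes, with a coefficient of variation of 50.8%. The log2 difference was 3.11 ± 0.43. Because the WT values are close to the pseudocount, it was 1.57 with a pseudocount of 1 and 3.58 with a pseudocount of 0.01. Efr3b passed the low-value filter (3 or more of the 6 samples at 1 FPKM or higher) only through the group labelled DKO and could not be tested between the WT cell types. There it was lower in every Mo-MDSC library than in every PMN-MDSC library (exact permutation test without pairing, two-sided p = 0.1, the smallest that 3 against 3 allows).

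The paralog Efr3a was more abundant, with means of 20.1 FPKM among WT Mo-MDSCs and 19.8 FPKM in the libraries labelled DKO, and was not called (limma, log2 difference -0.02, adjusted p = 0.925). Pi4ka, the kinase that the EFR3 proteins anchor, had means of 19.01 and 20.1 FPKM and was not called either (limma, adjusted p = 0.739). None of the 18 listed genes of this kinase complex and of phosphoinositide kinases was called between the Mo-MDSC groups, beside 0.253% of all genes. Between WT Mo-MDSCs and PMN-MDSCs 4 of these 18 rose and 6 fell, among 39.1% of all genes called in that comparison. They included Efr3a, which rose by 0.35 on the log2 scale (limma, adjusted p = 0.0349). Tmem150b rose by 2.16 (adjusted p = 7.8e-05) and Pip5k1b, a PIP 5-kinase, had a difference of -1.90 (adjusted p = 0.000298), while Ttc7 and Ttc7b, whose products are subunits of the complex, had differences of -0.94 and -0.73.

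Acta2 was at 5.22, 2.88 and 2.42 FPKM in WT Mo-MDSCs, at 13.5, 14.3 and 12.5 FPKM in the libraries labelled DKO and at 16.5, 14.4 and 18.3 FPKM in PMN-MDSCs. Every WT Mo-MDSC library was lower than every library of the other groups. The libraries labelled DKO stood just under the PMN-MDSCs, with the highest at 14.3 FPKM against the lowest PMN-MDSC library at 14.4 FPKM. The log2 difference between the Mo-MDSC groups was 1.98 ± 0.25. WT Mo-MDSCs were lower than PMN-MDSCs by a factor of 4.68 in mean FPKM, a log2 difference of -2.26 ± 0.27 (limma, adjusted p = 0.000743, lower in 3 of 3 libraries, adjusted p between 6.23e-05 and 0.00454 over the alternatives). That was the largest difference among the genes in this comparison.

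Of 21 listed actins and smooth muscle contractile genes, 10 were tested, of which 0 were called between the Mo-MDSC groups, beside 0.253% of all genes. Their median log2 difference was -0.12. In WT Mo-MDSCs relative to PMN-MDSCs 1 rose and 3 fell, beside 18.5% and 20.6% of all genes. Without a filter on low values 0 of 20 rose and 0 fell, beside 1941 and 2357 of 17357 genes. With quantile normalization 1 of 10 rose and 1 fell, beside 2542 and 2041 of 11491 genes. The calls in this list named below thus depended on the processing. Tagln (transgelin) had mean FPKM of 4.18, 3.36 and 3.29 in PMN-MDSCs, WT Mo-MDSCs and the libraries labelled DKO. Actb, the main cytoplasmic actin, had means of 5188, 3271 and 2740 FPKM in that order and fell between PMN-MDSCs and WT Mo-MDSCs (limma, log2 difference -0.66, adjusted p = 0.0058), as did Actg1 (-0.50, adjusted p = 0.0131). The serum response factor coactivator gene Mkl1 fell and Mkl2 rose in that comparison, with differences of -0.36 and 0.34.

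Markers of other spleen cells stood partly in the same order as Acta2. The summed FPKM of 10 fibroblast and smooth muscle markers ranged from 13.8 to 16.6 among the PMN-MDSC libraries, from 10.6 to 12.99 among the WT Mo-MDSC libraries and from 12.3 to 16.9 among those labelled DKO, with none of the markers at 0 in all libraries of a group. Myh11, a defining smooth muscle gene, had means ± SD of 0.351 ± 0.404, 0.221 ± 0.320 and 0.337 ± 0.504 FPKM in the same order. Its SD was above its mean in each group, so these values give no order of the groups. Cnn1 was also low, with means of 0.466, 0.221 and 0.386 FPKM. The sum of 4 endothelial markers was 60.8 to 67.8, 45.9 to 52.3 and 53.7 to 61.5, and that of 6 macrophage markers 5847 to 6724, 3574 to 4487 and 3938 to 6075. That of 5 B cell markers was 1434 to 1635, 1020 to 1148 and 1092 to 1373. The sum of 4 platelet and megakaryocyte markers was 3.86 to 8.38, 2.03 to 4.34 and 3.11 to 7.32. Sums without the order of Acta2 included those of 6 T and NK cell markers, at 18.3 to 24.75, 12.4 to 15.4 and 10.4 to 15.6. Others were those of 5 erythroid markers, at 1281 to 2900, 1219 to 2794 and 1479 to 2471, and of 4 dendritic cell markers, at 4.41 to 6.08, 5.09 to 8.04 and 4.87 to 8.03. The monocyte, neutrophil and progenitor sums, given in other paragraphs, also lacked that order. The part of other spleen cells in the Acta2 values was not tested.

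Abcc1 was at 12.7, 11.1 and 12.3 FPKM in WT Mo-MDSCs, at 20.4, 23.8 and 22.9 FPKM in the libraries labelled DKO and at 8.72, 7.87 and 7.54 FPKM in PMN-MDSCs. The 3 groups did not overlap, in the order PMN-MDSCs, WT Mo-MDSCs, libraries labelled DKO. Between the Mo-MDSC groups the log2 difference was 0.89 ± 0.10. WT Mo-MDSCs were above PMN-MDSCs by 0.58 ± 0.10 (limma, adjusted p = 0.00323, higher in 3 of 3 libraries, 0.00105 to 0.0213 over the alternatives).

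Among 14 listed ABCC and other drug transporters, 9 were tested. None was called between the Mo-MDSC groups, beside 0.253% of all genes, and the median was 0.24 on the log2 scale. Between PMN-MDSCs and WT Mo-MDSCs 4 rose and 0 fell, beside 18.5% and 20.6% of all genes. With the replicate block 4 rose and 3 fell, beside 3167 and 3417 of 11491 genes. The 4 without the block were Abcb1b (0.94), Abcc5 (0.89), Abcc4 (0.70) and Abcc10 (0.70). Abcc5, which exports cyclic nucleotides, had the same order of means as Abcc1, with 21.3, 39.5 and 52.1 FPKM in that order of groups, although the last step was not called (limma, log2 difference 0.40, adjusted p = 0.111). Of 18 listed genes of glutathione and leukotriene C4 metabolism, 17 were tested between the Mo-MDSC groups and 0 were called, beside 0.253% of all genes. Gclm, the modifier subunit of the enzyme that limits glutathione synthesis, had means of 29.8 FPKM among WT Mo-MDSCs and 59.1 FPKM in the libraries labelled DKO (limma, log2 difference 1.01, adjusted p = 0.111). Between WT Mo-MDSCs and PMN-MDSCs 2 of 18 rose and 9 fell, beside 18.5% and 20.6% of all genes. Those that fell included Ggt1 (-4.27), Alox5 (-2.73) and Ggt5 (-2.23), while Gstm1 rose by 1.36.

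Trpv4 was at 2.84, 3.03 and 2.63 FPKM in WT Mo-MDSCs, at 5.85, 6.60 and 5.80 FPKM in the libraries labelled DKO and at 2.53, 2.30 and 1.63 FPKM in PMN-MDSCs. The libraries labelled DKO were above both WT groups, and the lowest WT Mo-MDSC library was just above the highest PMN-MDSC library. The log2 difference between the Mo-MDSC groups was 1.08 ± 0.12, and that between WT Mo-MDSCs and PMN-MDSCs was 0.40 ± 0.19, which was not called (limma, adjusted p = 0.131). Of 25 listed TRP channels 9 were tested, 0 were called between the Mo-MDSC groups, and 4 rose and 2 fell in WT Mo-MDSCs against PMN-MDSCs. Over all genes the shares were 0.253%, 18.5% and 20.6%. Trpv2, a channel of the same subfamily, had means of 50.6, 32.0 and 32.2 FPKM in PMN-MDSCs, WT Mo-MDSCs and the libraries labelled DKO. The called channels with the largest differences between WT cell types were Pkd2 (1.21), Trpm4 (1.08), Trpm2 (-1.002) and Trpv2 (-0.66).

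Ggh was at 36.5, 27.3 and 31.5 FPKM in WT Mo-MDSCs, at 14.6, 12.5 and 10.2 FPKM in the libraries labelled DKO and at 19.2, 14.3 and 19.7 FPKM in PMN-MDSCs. The WT Mo-MDSCs were the highest group, and the libraries labelled DKO and the PMN-MDSCs overlapped. The mean in WT Mo-MDSCs was 2.56 times that in the libraries labelled DKO, and the log2 difference was -1.35 ± 0.16. WT Mo-MDSCs were above PMN-MDSCs by 0.84 ± 0.16 (limma, adjusted p = 0.0051, higher in 3 of 3 libraries, 0.000203 to 0.0371 over the alternatives).

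None of 21 tested folate genes was called between the Mo-MDSC groups, beside 0.253% of all genes, and their median log2 difference was 0.06. Fpgs, the enzyme that adds the glutamates that Ggh removes, had mean FPKM of 6.64, 5.80 and 7.24 in PMN-MDSCs, WT Mo-MDSCs and the libraries labelled DKO, and was called in neither comparison (limma, adjusted p = 0.602 and 0.480). Between WT Mo-MDSCs and PMN-MDSCs 3 of 20 rose and 2 fell, beside 18.5% and 20.6% of all genes. They included Mtfmt (0.64), Mthfs (-1.07) and Aldh1l1 (-0.56). The summed FPKM of 5 markers of myeloid progenitors, like Ggh, was highest in WT Mo-MDSCs. The single markers were not all so, since of 4 tested against PMN-MDSCs 2 were called higher and 1 lower. The sum ranged from 5.31 to 14.3 among the PMN-MDSC libraries, from 21.9 to 35.6 among the WT Mo-MDSC libraries and from 7.91 to 14.99 among those labelled DKO. None of the markers was at 0 in all libraries of a group. The granule protease gene Prtn3 was the largest part of the sum in both Mo-MDSC groups, with means of 3.63, 18.4 and 6.41 FPKM in the same order. The part of such cells in the Ggh values was not tested.

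Clec16a was at 4.48, 4.87 and 4.84 FPKM in WT Mo-MDSCs, at 8.07, 8.55 and 9.09 FPKM in the libraries labelled DKO and at 4.61, 4.71 and 5.24 FPKM in PMN-MDSCs. Both WT groups overlapped and all libraries labelled DKO lay above them. Between the Mo-MDSC groups the log2 difference was 0.84 ± 0.10, the smallest in size among the 8 genes, and between the WT cell types it was -0.04 ± 0.10 (limma, adjusted p = 0.807). The ubiquitin ligase gene Rnf41 and the deubiquitinase gene Usp8, whose products act with Clec16a in mitophagy, had log2 differences of 0.08 and -0.14 between the Mo-MDSC groups and were not called (limma, adjusted p = 0.671 and 0.431). The same was true of all 21 tested genes of the mitophagy and endosomal sorting list. Of all genes 0.253% were called there. In WT Mo-MDSCs against PMN-MDSCs 4 of the 21 rose and 11 fell, beside 18.5% and 20.6% of all genes. The largest differences were those of Bnip3 (-1.85), Map1lc3b (-1.45), Ulk1 (-1.16) and Map1lc3a (-0.80).

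Gm10653 was at 4.50, 5.08 and 4.41 FPKM in WT Mo-MDSCs, at 16.7, 21.4 and 21.6 FPKM in the libraries labelled DKO and at 5.68, 4.09 and 3.74 FPKM in PMN-MDSCs. The WT groups overlapped, and the lowest library labelled DKO was 3.28 times the highest WT Mo-MDSC library. The log2 difference between the Mo-MDSC groups was 2.06 ± 0.13, and between the WT cell types it was 0.07 ± 0.17 (limma, adjusted p = 0.776). Rps2, the gene aligned above, was at 989, 1059 and 973 FPKM among WT Mo-MDSCs and at 828, 984 and 899 FPKM in the libraries labelled DKO. These values overlapped, and Rps2 was not called (limma, log2 difference -0.16, adjusted p = 0.516). The mean of Gm10653 was 0.463% of that of Rps2 in WT Mo-MDSCs and 2.202% in the libraries labelled DKO. Rps2 lies on chromosome 17, 4.4 Mb from Cdkn1a. How reads that match both genes were divided is not given in the sources used here, so the level of Gm10653 is uncertain in all groups. Gm10653 also shares 181 exonic bases, 13.4% of its own, with Cln6 on the other strand, which had means of 19.6 and 16.5 FPKM in the Mo-MDSC groups.

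Between WT Mo-MDSCs and PMN-MDSCs, 4492 of 11491 genes (39.1%) were called, 2121 (18.5%) higher and 2371 (20.6%) lower. Of the 8 genes 7 were tested, of which Abcc1 and Ggh were higher, Acta2 was lower and Gm10653, Ppp2r1b, Trpv4 and Clec16a were not called. The comparisons share the WT Mo-MDSC samples, so a low value in those samples moves both differences in opposite directions. The plot of both differences sets them side by side.

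**Figure D2:**
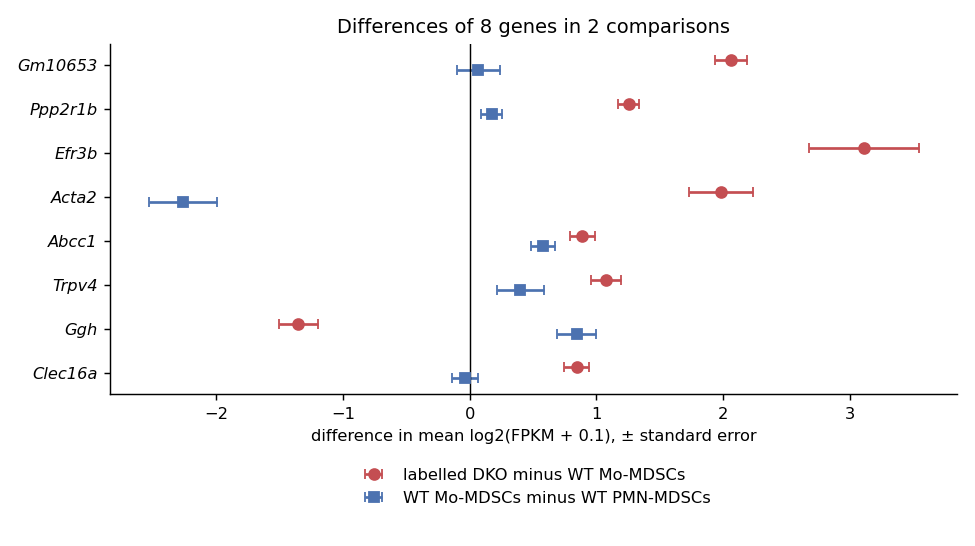
Difference in mean log2(FPKM + 0.1) with its standard error (x axis) for each of the 8 genes (y axis), circles for libraries labelled DKO minus WT Mo-MDSCs and squares for WT Mo-MDSCs minus WT PMN-MDSCs, 3 libraries per group. Acta2 lies at -2.26 and 1.98 and Ggh at 0.84 and -1.35, on opposite sides of 0, whereas Abcc1 lies above 0 in both; Efr3b has no square because it did not pass the filter.

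The genes listed as related to the 8 by function were 171 in 9 lists. They gave 0 calls among 129 tests between the Mo-MDSC groups, beside 29 of all 11451 genes (0.253%). At so low a share the 0 is no result about the lists. With all 9 samples in 1 fit 2 listed genes were called, and with the replicate block or without WT replicate 2 there was 1. The medians of the lists lay between -0.30, for 3 tested CDK inhibitors, and 0.24, for the transporters. Of these CDK inhibitors Cdkn2d and Cdkn1b fell between PMN-MDSCs and WT Mo-MDSCs, with differences of -1.66 and -1.01, and Cdkn2c rose by 0.31. In that comparison 39.1% of all genes were called.

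**Figure D3:**
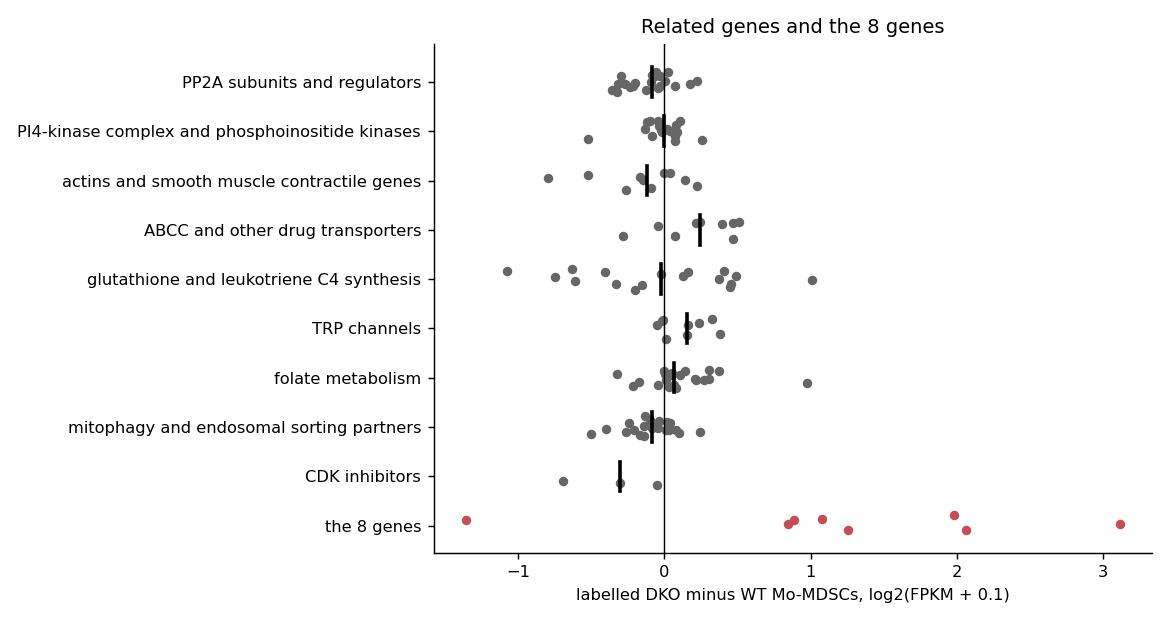
Log2 difference between libraries labelled DKO and WT Mo-MDSCs (x axis) for each tested gene (grey points) of 9 lists of related genes (y axis), with the median of each list as a black bar, and for the 8 genes (red points). The list medians lie between -0.30 and 0.24; the 8 genes, chosen for this difference, lie at -1.35 and between 0.84 and 3.11.

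The surroundings of the genes were read from the annotation, with the 10 nearest annotated genes that had a value on each side of each gene. This gave 157 neighbours, since Efr3b lies near the end of its chromosome and had 17. Of these 92 were tested and 0 were called, beside 0.253% of all genes, and their log2 differences ran from -0.88 to 1.98 with a median of -0.03. The genes directly beside Acta2 were Stambpl1, with means of 11.8 FPKM among WT Mo-MDSCs and 10.3 FPKM in the libraries labelled DKO, and Fas, with 9.76 and 8.73 FPKM. Fas, the death receptor gene, stood at 34.0 FPKM in PMN-MDSCs. Gltp and Mvk, beside Trpv4, had 129 and 128 FPKM and 3.68 and 3.41 FPKM, and Alg9, beside Ppp2r1b, had 7.17 and 7.44 FPKM. Dexi and Socs1, beside Clec16a, had 13.7 and 13.9 FPKM and 2.87 and 3.21 FPKM. Dnajc27, beside Efr3b, had 3.41 and 3.15 FPKM. Pomc beside Efr3b, Ttpa and Nkain3 beside Ggh, Myh11 and A630010A05Rik beside Abcc1 and Calml4 beside Gm10653 had means under 1 FPKM in every group.

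The neighbours with the smallest adjusted p were singled out after their values were seen. 1810046K07Rik, 395.5 kb from Ppp2r1b, had means of 0.807 FPKM among WT Mo-MDSCs and 3.29 FPKM in the libraries labelled DKO, without overlap (limma, log2 difference 1.98, adjusted p = 0.0751). Ciita, the master regulator of MHC class II genes, 16.9 kb from Clec16a, had means of 38.5 and 60.3 FPKM, also without overlap (limma, log2 difference 0.65, adjusted p = 0.0862). Neither passed the threshold.

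**Figure D4:**
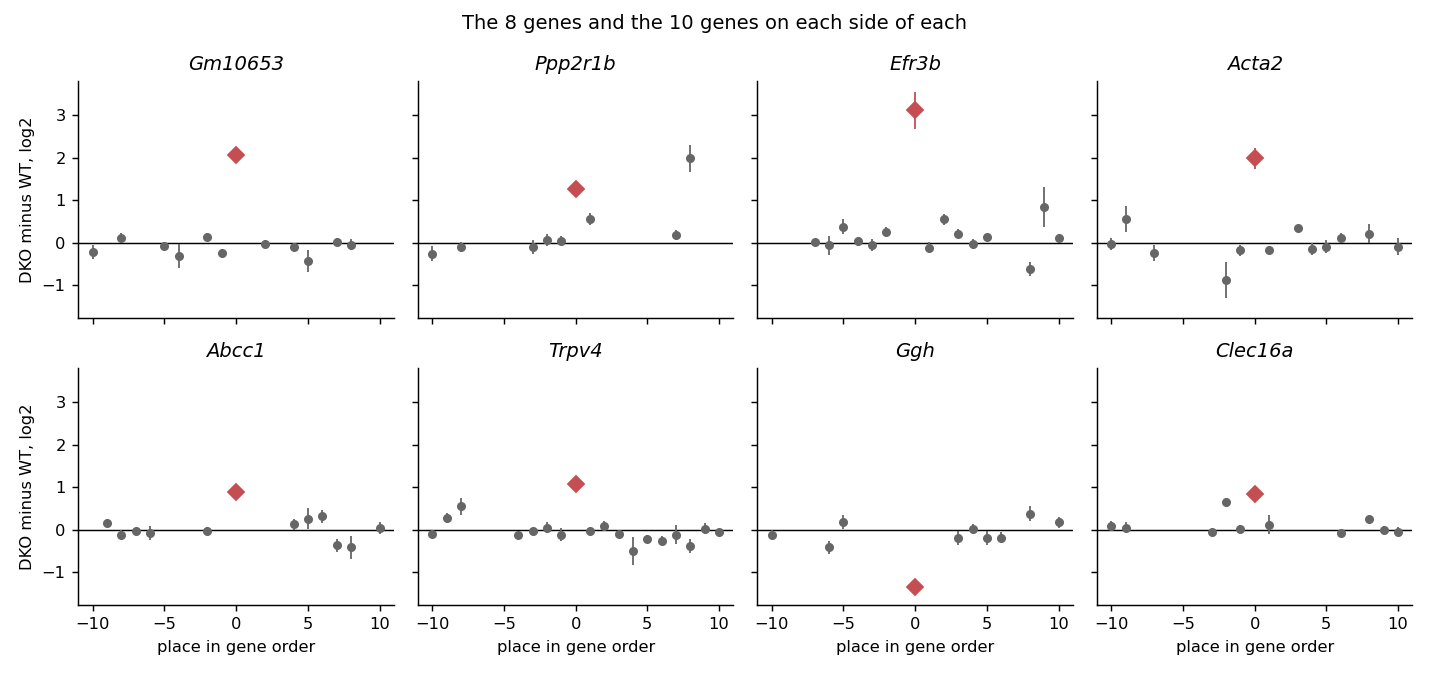
Log2 difference between libraries labelled DKO and WT Mo-MDSCs with its standard error (y axis) for each of the 8 genes (red diamond) and its tested neighbours (grey points) by place in gene order (x axis, 0 is the gene itself, up to 10 genes on each side). In the panel of Ppp2r1b, 1810046K07Rik lies at 1.98 against 1.25. In each other panel the gene lies farther from 0 than all of its tested neighbours. The 8 genes were chosen for this difference and their neighbours were not, so nothing further is read from this.

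For each of the 8, the 3 genes most like it in log2(FPKM + 0.1) over the 9 libraries were found among 11726 genes. These libraries hold only 3 groups, so the correlations describe the order of the groups as much as anything within them. Gm10653 and Ppp2r1b were each other's nearest (Pearson r = 0.986), and Ppp2r1b was, with Dnahc8, also among the nearest of Clec16a (both r = 0.972). Gm8801 was among the nearest 3 of Gm10653, Ppp2r1b and Clec16a (r = 0.977, 0.984 and 0.981), and Glo1 was the other of Ppp2r1b (r = 0.978). Cables1 was among the nearest of Gm10653 and Trpv4 (r = 0.971 and 0.974), and those of Trpv4 also included 2510009E07Rik and Gm3435 (r = 0.973 and 0.967). The nearest of Acta2 was Cd274, the gene of PD-L1 (r = 0.982), with mean FPKM of 29.7, 24.7 and 28.9 in PMN-MDSCs, WT Mo-MDSCs and the libraries labelled DKO, followed by Mepce and Fert2 (r = 0.968 and 0.942). Those of Ggh were Strada, Naca and Utp3 (r = 0.954, 0.937 and 0.932), those of Efr3b were A130022J15Rik, Wdfy3 and Rxra (r = 0.967, 0.949 and 0.945), and those of Abcc1 were Gm3435, Tor1aip2 and 9030025P20Rik (r = 0.982, 0.982 and 0.978). Gm8801, Glo1 and 9030025P20Rik lie on chromosome 17, which holds Cdkn1a, and each was called higher in the libraries labelled DKO. Dnahc8 was also called higher, but its symbol had no place in the annotation.

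Replicate 1 of each group carried a lower series of library numbers than replicates 2 and 3, so the differences between the Mo-MDSC groups were also taken within each series. The genes were chosen on this comparison and their groups do not overlap, which fixes the signs, so only the sizes are given. Ppp2r1b was 1.23 higher in replicate 1 and 1.26 higher in replicates 2 and 3 on the log2 scale, Clec16a 0.83 and 0.85, Trpv4 1.02 and 1.11, Gm10653 1.87 and 2.16 and Abcc1 0.68 and 0.99, and Ggh had differences of -1.31 and -1.37. The series differed most for Efr3b, with 4.04 and 2.65, and for Acta2, with 1.35 and 2.30. The WT Mo-MDSC library of replicate 1 had the highest Acta2 of its group, and the library of replicate 1 labelled DKO had the highest Efr3b. What the series of numbers stands for is not stated.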

How the data were processed

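The authors prepared stranded mRNA libraries, sequenced single-end reads, mapped them to mm10 and deposited 1 table of FPKM values per sample. The submitters' processing notes name TopHat2 2.0.13, Bowtie2 2.2.3, SAMtools 0.1.19 and Cuffnorm 2.2.1. The annotation and strand setting are not given in the sources used here. The 8 genes and all gene lists were chosen with earlier results of these data known.

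The fits used limma 3.58.1 on log2(FPKM + 0.1), over genes that reached 1 FPKM in 3 or more of the 6 libraries compared (R 4.3.3, eBayes with a trend, no covariates), with Benjamini-Hochberg adjustment over all genes tested and a threshold of 0.05. Samples were grouped by their labels. Genes named besides the 8 are Cdkn1a and Cdkn2a, up to 4 called genes with the largest differences of each list, the closest paralog or partner, the 3 most alike genes, marker genes, and genes beside or overlapping the 8. A result for 1 gene covered by this rule is not reported here. The fit was tested on simulated data with 200 genes changed by 1.5 on the log2 scale. Of these it called 87% for DKO against WT and 88% for the comparison of the WT cell types. The simulated noise was independent between samples, without pairing or series. These shares therefore do not carry over to smaller changes or to samples that are paired or come in series. Deviations from the group means of same-numbered WT Mo-MDSC and PMN-MDSC samples correlated (r = 0.294, 0.483 and 0.2), against -0.429 to 0.05 for differently numbered samples. These numbers may thus pair the samples, although no label states it. The main fit left such a pairing out, with 4492 genes called against 6584 with the replicate block. Similar transcripts were found with blastn 2.17.0 in GENCODE M21. Alternatives were other pseudocounts, filters, scalings and moderation, all samples in 1 fit, a replicate block, replicates 2 and 3 only, and leaving out each sample.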

Additional observations from a re-analysis of the deposited data

How the results depend on the processing

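The count of 29 genes called between libraries labelled DKO and WT Mo-MDSCs depended on the samples and the filter. It was 13 without a filter on low values, 51 with all 9 samples in 1 fit, and 6 with replicates 2 and 3 of both groups only. With each library left out it ranged from 8 to 25. It was 12 without DKO replicate 1, 12 without DKO replicate 2, 8 without DKO replicate 3, 9 without WT replicate 1 and 9 without WT replicate 3. The count of 4492 between WT Mo-MDSCs and PMN-MDSCs was 2759 with replicates 2 and 3 only and ranged from 3295 to 3864 with each library left out. With the replicate block the counts were 20 and 6584. In the DKO comparison the same-numbered deviations did not all correlate (r = 0.348, 0.226 and -0.07), against -0.388 to 0.174 for differently numbered samples. DKO replicates 1 and 2 correlated best with their own number, and DKO replicate 3 did not. Whether the numbers pair the samples there is not settled by these values. With the block 5 of the 8 genes were called in the DKO comparison, without Efr3b, Abcc1 and Clec16a, and over all alternatives 2 to 8 were called. The block changed no call of the 8 genes between WT Mo-MDSCs and PMN-MDSCs.

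Between the Mo-MDSC groups the choice of the genes fixes the sign of their differences. With a pseudocount of 1 the log2 differences were 1.88 for Gm10653, 1.57 for Efr3b, 0.89 for Trpv4 and 0.74 for Clec16a. Between WT Mo-MDSCs and PMN-MDSCs the calls of the 7 tested genes stood on the same side of the threshold in all 16 alternatives. The differences near 0 changed sign, for Gm10653 to -0.0262 with quantile normalization and -0.0503 without PMN-MDSC replicate 3 (range -0.0503 to 0.244 with each library left out), and for Clec16a to 0.0019 without WT Mo-MDSC replicate 1 and 0.0193 without PMN-MDSC replicate 3 (range -0.0706 to 0.0193). In the lists of related genes, 1 drug transporter was called with all 9 samples in 1 fit. From the glutathione and leukotriene C4 list 1 gene was called in that fit, with the replicate block and without WT replicate 2. The cause of these changes was not tested. Depth in reads is unknown.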
